A study of Equus caballus with 31 samples.

Results

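Osteoarthritis (OA) was set against health in 2 compartments of the same species, and the quantity described here is the OA effect in the cells of joint (synovial) fluid minus the OA effect in blood mononuclear cells (PBMC). All 31 libraries of the series entered the comparison, with 12733 of the 16799 gene symbols that both tables hold, those with a mean value of at least 10 in each table. The animals were horses labelled wild type and sorted by lameness examination, radiographs and the answer to joint analgesia, and horses recently medicated or injected in a joint had not been enrolled. Fluid came from 5 horses with naturally occurring OA and 11 healthy horses, and PBMC from 6 and 9. Of these, 13 horses (5 with OA and 8 healthy) gave both samples. Horses are named as in the labels, OA_ or ORC_ (healthy) with a number. The labels call every sample mixed mononuclear cells and give no age, sex, joint or batch, so OA groups may differ from healthy groups in any of these, and disease and batch cannot be told apart.

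Synovial fluid lubricates the joint and carries macrophages, lymphocytes and cells shed from the joint lining. PBMC are the lymphocytes and monocytes that circulate in blood and are separated from it by density. OA is a degenerative disease of the joint in which cartilage is lost and the lining is inflamed, so that immune cells in the joint and in the circulation meet different surroundings.

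Values are read counts that the authors normalized by a size factor per library, separately in each tissue, so levels were not compared between tissues. An OA effect is the mean of log2(value + 1) in OA minus that in healthy horses, and the difference is the effect in fluid minus the effect in blood. A gene was called at a limma adjusted p (Benjamini-Hochberg over the 12733 genes) under 0.05. The same contrast was also taken on each horse's own fluid minus blood value. Such a within-horse value has no meaning at its zero point, but it can be compared between OA and healthy horses.

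Library depth, summed over genes and given in M (mega) reads, was 25.9 to 36.3 M in fluid. In PBMC the OA libraries were deeper, with 31.7 to 34.8 M against 23.9 to 32.2 M (two-sided exact permutation p = 4e-04). After all libraries were thinned to the shallowest one, 97.8% of the genes called in the difference were still called. All 15 T cell markers were present in both tables with a mean of at least 10. Of the synovial fibroblast markers, 16 were in the fluid table and none had a mean under 10, whereas 12 of the 15 in the blood table did. Genes of joint lining cells were thus measured in the fluid samples beside those of mononuclear cells. In bulk samples, fewer cells of a type and less RNA per cell cannot be told apart.

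Most of the difference lay in fluid. The OA effect differed between tissues for 2834 genes, 22.3% of those tested: 1315 (10.3%) had a higher effect in fluid and 1519 (11.9%) a lower one. Within fluid 3576 genes (28.1%) were called and within blood 694 (5.45%; 3.24% higher and 2.21% lower in OA), and the median size of the OA effect was 0.53 in fluid and 0.23 in blood on the log2 scale. Of the genes with a called difference, 2186 (17.2% of those tested) were called in fluid only, 89 (0.699%) in blood only, 29 (0.228%) in both tissues with opposite signs and 36 (0.283%) in both with the same sign. The remaining 494 were called in neither tissue alone. For 1933 of the fluid-only genes (88.4%) the 95% interval of the blood effect stayed within 1 log2 unit of 0, so a 2-fold change in blood lay outside it. The same held for 9414 of the 12733 genes tested and for 70.8% of those without a called difference. Fluid-only genes were also picked for having no call in blood. The within-horse contrast called 2895 genes (22.7%), among them 1758 of the fluid-only genes. With every library scaled to the same total instead, 807 genes were higher and 2249 lower, so 26.4% of the calls were on the higher side against 46.4% in the fit used here, and the median difference of all genes moved from -0.05 to -0.26.

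**Figure D1:**
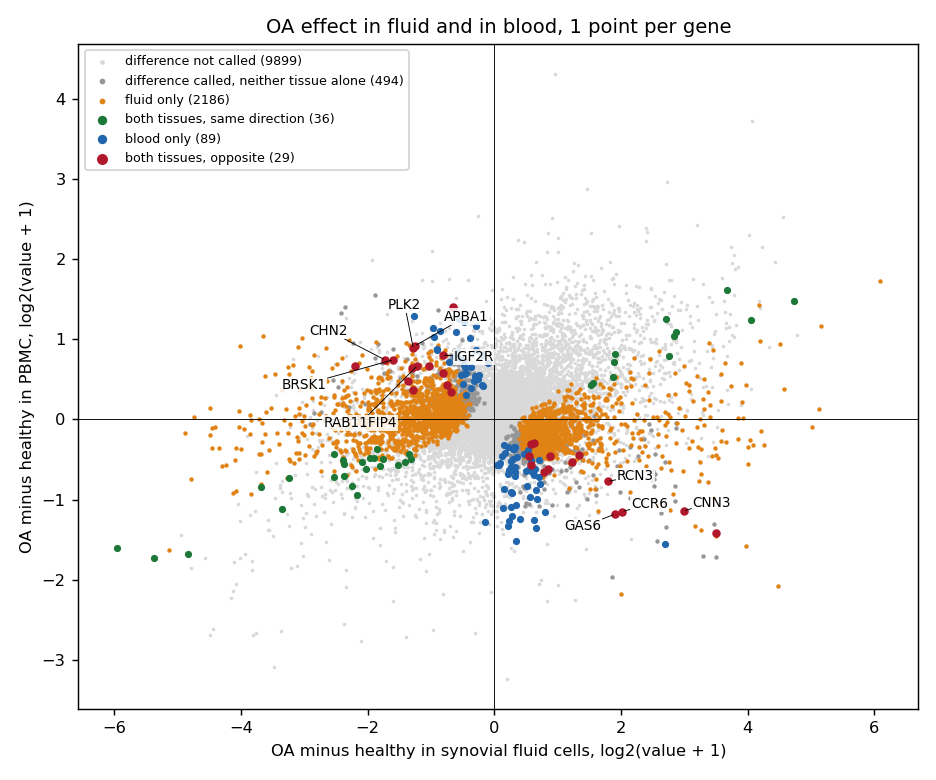
OA effect of each of the 12733 genes in synovial fluid cells (x axis) against that in PBMC (y axis), both as OA minus healthy on the log2(value + 1) scale; colours give the class of the gene and the legend the number in each. The cloud is wider along the fluid axis, the 2186 fluid-only genes lie along it, and the 29 genes called in opposite directions fall in the upper left and lower right corners.

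Genes that changed in opposite directions numbered 29. Of these, 14 rose in OA fluid and fell in OA blood, and 15 did the reverse. All 29 were also called in the within-horse contrast, and for 18 of them the within-horse values of OA and healthy horses did not overlap. This held for 7.87% of all genes tested and for 703 of the 2186 fluid-only genes. The 29 were picked by their difference in libraries that the within-horse contrast reuses. These within-horse values, and the exact p-values below, are thus no separate support. The estimates of 46.6% of all genes had opposite signs, so opposite signs without a call in each tissue are common in these data. Described first are the 10 for which the smaller of the effects in fluid and in blood was largest.

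CCR6, the receptor for the chemokine CCL20 on memory T cells, B cells and some dendritic cells, rose in fluid and fell in blood. Its fluid values were 559.3, 883.3, 942.5, 985.4 and 330.7 in the 5 OA horses, against 39.08 to 652.8 (median 215.2) in healthy horses. In blood they were 183.1 to 716.4 (median 338.5) in OA and 349.4 to 998.8 (median 874.0) in healthy horses. The OA effect was 2.02 in fluid (SE 0.58) and -1.15 in blood (SE 0.27), a difference of 3.17 (SE 0.63, limma adjusted p = 0.00132). The groups overlapped in each tissue alone, with 3 of 5 OA fluids above every healthy fluid and 3 of 6 OA bloods below every healthy blood. Within horses they did not overlap, at 0.35 to 2.42 in OA and -4.11 to -0.22 in healthy horses (two-sided exact permutation p = 0.00155, not adjusted). The gene lies at chr31:2987872-3018801 of EquCab3.0.

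GAS6, a secreted ligand of the TAM receptor kinases through which macrophages take up dying cells, moved the same way. Fluid values were 1504, 2189, 990.1, 543.4 and 760.2 in OA and 62.04 to 1078 (median 259.1) in healthy horses. Blood values were 83.05 to 463.2 (median 253.8) in OA and 272.7 to 668.9 (median 578.9) in healthy horses. Its OA effects of 1.90 in fluid and -1.18 in blood gave a difference of 3.08 (SE 0.67, limma adjusted p = 0.00243). Of 9 healthy bloods, 8 lay above every OA blood, whereas in fluid only 2 of 5 OA horses exceeded all healthy ones.

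CNN3, an actin-binding calponin of fibroblasts and smooth muscle, had the widest difference of the 10, 4.13 (SE 0.999, limma adjusted p = 0.00488). In 4 OA fluids it stood at 617.4 to 3405, above every healthy fluid (11.12 to 427.1), and in the remaining OA fluid, of OA_9570, at 16.63. In blood it was 98.41 to 354.0 in OA and 197.3 to 520.5 in healthy horses, an effect of -1.14. RCN3, a calcium-binding protein of the endoplasmic reticulum that serves collagen production, followed the same pattern, with effects of 1.79 and -0.77 and 4 of 5 OA fluids above every healthy one. The horse below the others was again OA_9570. The summed level of the fibroblast markers ran from 1302 to 147500 in OA fluid and from 1171 to 29240 in healthy fluid, and from 1015 to 1671 and 598.7 to 1703 in OA and healthy blood. Its part in the changes of CNN3 and RCN3 was not tested in either tissue. In blood the sums overlapped between the groups, as did the values of CNN3 and RCN3. There, 12 of the 15 markers had a mean under 10.

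In the other direction stood CHN2, a brake on the small GTPase Rac (beta-chimaerin), with the smallest adjusted p of the 10. Fluid values were 401.6, 159.6, 138.7, 191.4 and 337.6 in OA and 411.3 to 1545 (median 718.0) in healthy horses, so that no OA fluid reached a healthy one; over all genes 3.77% separated in this way in fluid. Blood values were 521.8 to 985.1 (median 714.7) in OA and 336.6 to 582.4 (median 398.1) in healthy horses. The effects were -1.73 in fluid (SE 0.32) and 0.74 in blood (SE 0.16), a difference of -2.47 (SE 0.35, limma adjusted p = 0.000226). CHN2 spans chr4:60199429-60484458.

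IGF2R, the receptor that clears insulin-like growth factor 2 and sorts lysosomal enzymes, fell in OA fluid and rose in OA blood. Its fluid values were 2322, 1615, 2086, 2659 and 5017 in OA against 2516 to 6166 (median 4725) in healthy horses. In blood they were 5906 to 12080 (median 10640) in OA against 3459 to 7561 (median 6147). The effects of -0.81 and 0.80 were of nearly the same size, and their difference was -1.62 (SE 0.33, limma adjusted p = 0.00149). In blood 5 of 6 OA horses lay above all healthy ones, and in fluid 3 of 5 lay below. Its ligand IGF2 had the same orientation, with effects of -1.27 in fluid (limma adjusted p = 0.124) and 1.297 in blood (limma adjusted p = 0.0406), and was called in blood only; without the fluid of OA_2615 its difference was not called (limma adjusted p = 0.0528).

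The remaining opposite genes named by the rule were all lower in OA fluid and higher in OA blood. APBA1, an adaptor protein of vesicle traffic, was 927.7, 312.9, 406.6, 440.9 and 733.8 in OA fluid against 559.3 to 2655 (median 1185), and 348.9 to 574.7 in OA blood against 179.4 to 350.0. Its effects were -1.25 and 0.92, and 5 of 6 OA bloods lay above every healthy one. BRSK1, a kinase of the AMPK family, was 135.5, 37.69, 108.0, 69.15 and 383.5 in OA fluid against 144.3 to 837.4 (median 381.2), with 4 of 5 below every healthy fluid, and 434.4 to 1032 in OA blood against 251.1 to 555.0. Its effects were -1.60 and 0.74.

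RAB11FIP4, an effector of recycling endosomes, was 1215, 211.1, 1080, 1324 and 1988 in OA fluid against 1570 to 3406 (median 2160), and 1208 to 2460 in OA blood against 952.1 to 1613. Its effects were -1.22 and 0.67, and the fluid of OA_2615 was far below the others. PLK2, a stress-induced polo-like kinase, was 1927, 850.6, 850.3, 744.6 and 498.0 in OA fluid against 847.0 to 3559 (median 2609), and 385.3 to 722.1 in OA blood against 193.8 to 477.1. Its effects were -1.28 and 0.89, and only 2 of 5 OA fluids lay below every healthy one. For each of these 4 genes the within-horse values of OA and healthy horses did not overlap (two-sided exact permutation p = 0.000777, the smallest that the splits of 13 horses allow, not adjusted).

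**Figure D2:**
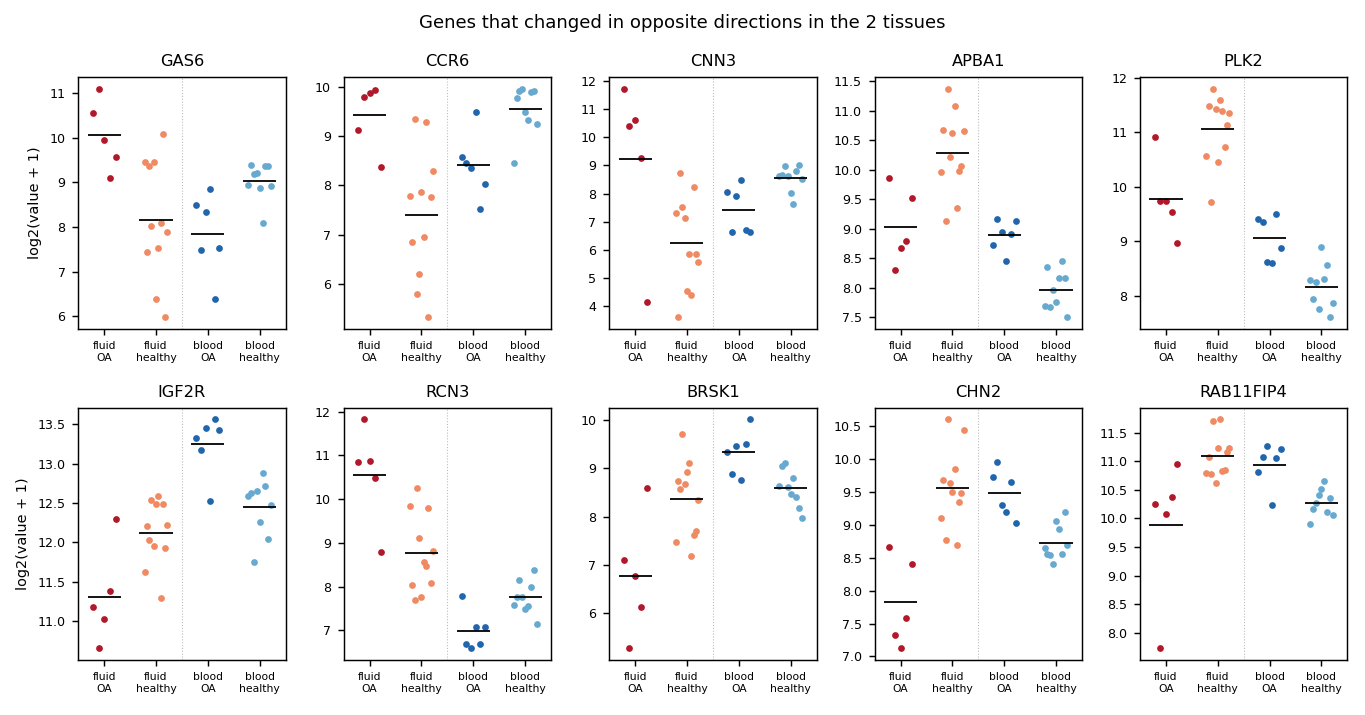
Values of the 10 opposite genes in each library as log2(value + 1), in 4 groups per panel (fluid OA, fluid healthy, blood OA, blood healthy); each point is 1 horse and the bar is the group mean, and levels left and right of the dotted line are not comparable. In every panel the mean of OA lies on opposite sides of the mean of healthy horses in the 2 tissues, as for CHN2, below every healthy fluid (411.3 to 1545) in fluid and mostly above in blood.

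Several of the other opposite genes have known roles in immune cells; apart from ITGAL they were chosen here after their values were seen. TNFSF14 (LIGHT), a T cell cytokine of the TNF family, had effects of -2.19 in fluid and 0.67 in blood. ITGAL, the alpha chain of the leukocyte integrin LFA-1, had effects of -1.36 and 0.47, while its partner chain ITGB2 was called in neither tissue (-0.33 and 0.29) and its difference of -0.62 was lost within horses (limma adjusted p = 0.0737) and in all in 20 alternative fits. On the other side stood MYB, a transcription factor of progenitors and dividing lymphocytes (1.22 and -0.53), IMPDH2, the rate-limiting enzyme of guanine nucleotide synthesis (0.78 and -0.66), and the splicing protein SNRPF (0.58 and -0.56).

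The opposite calls rest on few blood libraries. When the PBMC library of OA_3850 or of OA_9350 was left out, 0 genes remained in the opposite class, and without that of OA_9570, 1 gene remained (CHN2). In those 3 fits blood had 27, 28 and 29 called genes in place of 694, while 3209 genes had an unadjusted p under 0.05 in the full blood fit. All 29 genes kept a called difference and opposite signs with every single library left out. They had been picked by their calls in the full data, so this lends no support to the calls in blood.

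Chaperones gave both opposite members and a shift of the whole list. Of 21 heat shock proteins and chaperones, which fold new and damaged proteins, 13 had a higher OA effect in fluid and none a lower one, with a median difference of 0.89 against -0.05 over all genes. In fluid 12 rose, and in blood 3 fell. The cytosolic HSP90AA1 ranged from 22040 to 31130 in OA fluid against 12800 to 22690, and from 16190 to 19690 in OA blood against 19730 to 23260. Its effects were 0.59 and -0.30, and no OA blood reached a healthy one; over all genes 1.04% separated in this way in blood. CCT8, a subunit of the ring-shaped chaperonin that folds actin and tubulin, was 2975 to 3948 in OA fluid and 1478 to 2600 in healthy fluid without overlap, with effects of 0.63 and -0.29. The mitochondrial HSPD1 was called in fluid only (1.001 against -0.25).

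Genes of protein synthesis shifted as a block. Of 43 cytosolic ribosomal protein genes tested, 37 had a higher OA effect in fluid, with a median difference of 1.14; 27 rose in fluid (median 0.81) and none was called in blood (median -0.36). All 43 had a positive estimate in fluid and a negative one in blood. RPL7, of the large subunit, stood at 128400, 56090, 52370, 64640 and 40730 in OA fluid against 21330 to 49560 (median 26870) in healthy fluid. In blood it was 32320 to 44770 in OA against 36240 to 78810. Its difference was 1.51 (SE 0.31, limma adjusted p = 0.00155), and 4 of 5 OA fluids exceeded every healthy fluid. The OA_1038 fluid was the highest by far, and without it 15 of the 43 genes were called; 29 were called when all libraries were scaled to the same total. Ribosomal protein genes have many near-identical processed copies, and how reads from these were assigned is not given in the sources used here. Mitochondrial ribosomal proteins, which translate the mitochondrial genome, were higher in 12 of 27 cases (median difference 0.69), for example MRPL24 at 745.4 to 1410 in OA fluid and 189.9 to 645.5 in healthy fluid.

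Energy metabolism and protein turnover had a smaller shift in the same direction. Of 28 nuclear genes of oxidative phosphorylation, 14 had a higher OA effect in fluid (median difference 0.63); 13 rose in fluid, none was called in blood, and 23 had estimates of opposite sign. UQCRC2, of respiratory complex III, was 2933 to 3241 in OA fluid and 1469 to 2607 in healthy fluid without overlap, and 2261 to 2873 against 2242 to 3459 in blood. COX7B, of complex IV, had effects of 1.13 and -0.26. Without the fluid library of OA_9350 5 of the 28 were called, and 9 with equal totals. Of 24 genes of the constitutive proteasome, 11 were higher, among them PSMB5, a catalytic subunit (1.21 in fluid and 0.17 in blood), but 4 with equal totals. Antioxidant genes gave 6 of 15, among them the peroxiredoxin PRDX1 (difference 1.53), thioredoxin TXN (1.69) and the lipid peroxidase GPX4 (1.32).

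**Figure D3:**
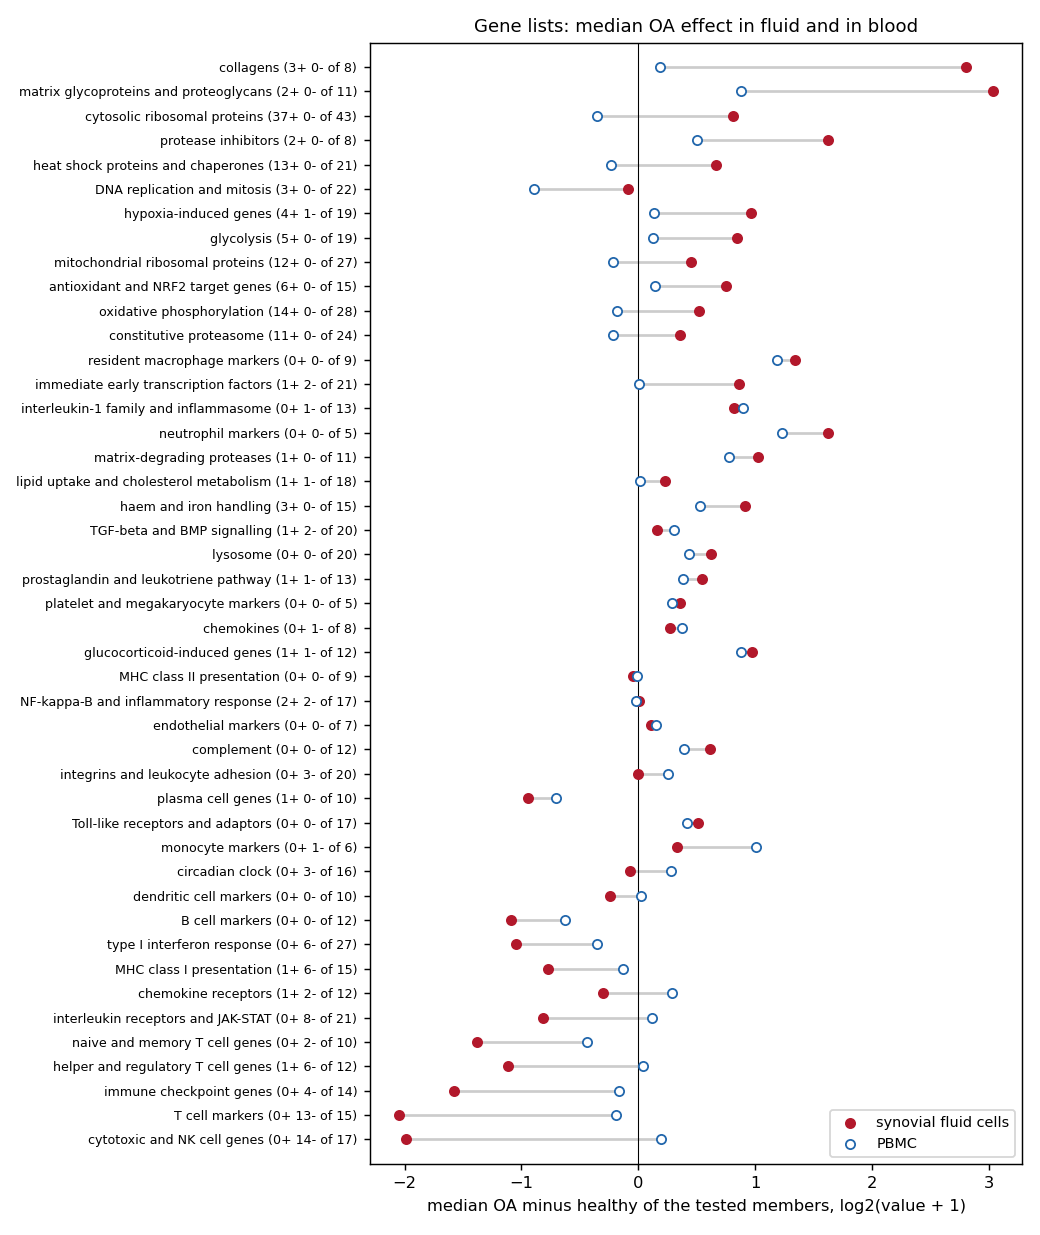
Median OA effect of the tested members of each gene list with at least 5 of them, in synovial fluid cells (filled) and PBMC (open), on the log2(value + 1) scale; the labels give how many members had a higher (+) or lower (-) effect in fluid at a limma adjusted p under 0.05. T cell and cytotoxic genes stand far to the left in fluid and near 0 in blood, and for cytosolic ribosomal proteins the medians lie at 0.81 and -0.36 on either side of 0.

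Genes lower in OA fluid and not called in blood were led by T cell and killer cell genes. Of 15 T cell markers, 13 had a lower OA effect in fluid (median difference -1.83); 14 fell in fluid (median -2.04) and none was called in blood (median -0.19), or 5 without the PBMC library of OA_1038. LAT, the adaptor that relays the T cell receptor signal, was 654.6 to 2806 in OA fluid and 3242 to 21180 in healthy fluid without overlap, and 5629 to 12110 against 6896 to 10710 in blood. The surface protein CD2 and the receptor kinase ZAP70 had differences of -1.96 and -2.08. Of 17 cytotoxic and NK cell genes, 14 were lower (median difference -2.17); 16 fell in fluid, and in blood none was called and the median was 0.19. FASLG, the ligand by which killer cells induce death, was 1318, 316.6, 354.7, 473.0 and 604.7 in OA fluid against 1283 to 7147 (median 3528), and 543.7 to 1211 in OA blood against 453.2 to 920.6. Its difference was -2.95 (SE 0.46, limma adjusted p = 0.000382). GZMM, a granule protease, had the largest difference of the list, -3.20.

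The summed T cell markers were 9264 to 40130 in OA fluid and 40910 to 153900 in healthy fluid, and 60060 to 126600 and 74500 to 114700 in OA and healthy blood. The part of T cell content in the falls of other fluid genes was not tested. Of 12 helper and regulatory T cell genes, 6 were lower and CCR6 was higher. GATA3, the master factor of type 2 helper cells, had a difference of -2.38, and CD40LG, the helper signal to B cells, one of -1.86. Of 14 immune checkpoint genes, 4 were lower, 28.6% called against 22.3% of all genes. Among them were the inhibitory receptors LAG3 (-1.41), CD160 (-2.27) and CTLA4 (-2.31), the last with a limma adjusted p = 0.0624 within horses. Of 21 interleukin receptor and JAK-STAT genes, 8 were lower, such as JAK3, the kinase of the common gamma chain (-1.55), STAT5B (-1.14) and STAT4 (-1.71). Of 12 B cell markers none differed between tissues at the threshold, with medians of -1.09 in fluid and -0.63 in blood.

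Many genes of MHC class I presentation and of the type I interferon response were also lower in OA fluid. Of 15 genes of MHC class I presentation, 6 had a lower OA effect in fluid and 1 a higher one (median -0.65), while none of 9 MHC class II genes was called (median -0.01). TAPBP, which loads peptide onto class I molecules, was 3216, 3957, 3262, 3997 and 4005 in OA fluid against 5241 to 8304, and 7562 to 8198 in OA blood against 6407 to 9383. The OA and healthy fluids did not overlap, and its difference was -1.03 (SE 0.16, limma adjusted p = 0.000393). The peptide transporter TAP1 had a difference of -1.77 and NLRC5, the class I transactivator, one of -2.09. Of 27 genes of the type I interferon response, 15 fell in fluid and 1 in blood, but 6 had a called difference (median -0.57). That is 22.2% of the list against 22.3% of all genes, so the interferon genes below are given as single genes. The blood estimates also had a median below 0 (-0.35). XAF1 was 230.8 to 421.7 in OA fluid and 570.7 to 2075 in healthy fluid, and IRF9, a subunit of the interferon-activated factor, 1731 to 3880 and 4612 to 7711, both without overlap.

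Lists of genes that guide leukocytes were called at shares near or below the 22.3% of all genes: 3 of 12 chemokine receptors (25%), 1 of 8 chemokines (12.5%), 1 of 13 genes of the interleukin-1 family (7.69%) and 3 of 20 integrins and adhesion genes (15%). They are thus given as single genes. Of the receptors, CCR6 had a higher OA effect in fluid, and CXCR3 and CCR2 a lower one. CXCR3, the receptor for interferon-induced chemokines on effector T cells, was 526.4 to 1847 in OA fluid against 1533 to 6473, and 1336 to 2517 in OA blood against 1230 to 2256 (difference -2.06, SE 0.37, limma adjusted p = 0.0008). The chemokine called was CCL5, with effects of -1.87 in fluid and 0.33 in blood, and without the fluid of OA_2615 it was not called (limma adjusted p = 0.061). The collagen-binding integrin chain ITGA1 had effects of -1.27 and 0.17. IL18RAP, a subunit of the interleukin-18 receptor, had a difference of -2.02, also not called without that fluid (limma adjusted p = 0.0515). CD27, a costimulatory receptor of naive and memory T cells, fell in fluid from 1776 to 9018 down to 463.6 to 1738 without overlap (difference -1.72), and TCF7, a factor of naive T cells, differed by -1.64 but was not called within horses (limma adjusted p = 0.156) and lost the call in 15 of the 47 alternative fits in all.

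Some genes of low oxygen were higher in OA fluid and not called in blood. BNIP3, a mitochondrial protein induced by hypoxia, had the smallest adjusted p of the genes named. It stood at 2229, 2039, 3298, 1599 and 2109 in OA fluid against 531.9 to 880.1 in healthy fluid, and at 411.0 to 561.3 in OA blood against 378.0 to 533.1. The OA fluids lay above all healthy ones, and the difference was 1.53 (SE 0.19, limma adjusted p = 5.7e-05) with a blood effect of 0.07 (95% interval -0.14 to 0.28). VEGFA, the vessel growth factor, differed by 2.91. NDRG1 rose in both tissues, by 2.75 in fluid and 0.79 in blood, and more in fluid. In all, 4 of 19 hypoxia-induced genes were higher and 1 lower, and 5 of 19 glycolytic genes were higher, in each list 26.3% called against 22.3% of all genes. The glycolytic genes included PKM (1.05), ENO1 (1.13) and TPI1 (1.08), whose within-horse values did not overlap.

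The 8 largest differences belonged to genes of varied function. FAM124A, of unknown function, had the largest, 6.56 (SE 1.61, limma adjusted p = 0.00526), with 160.2, 101.8, 311.3, 119.8 and 11.74 in OA fluid, 0 in 5 of 11 healthy fluids, at most 18.63 in OA blood and 0 to 123.0 in healthy blood. Its within-horse values did not overlap, at 3.67 to 5.25 in OA and -6.30 to 0 in healthy horses. ENPP1, which makes the mineralization inhibitor pyrophosphate, differed by 5.55, with 3134, 2826, 2151, 766.9 and 64.58 in OA fluid against 6.785 to 682.7. COL14A1, a collagen of fibril surfaces (5.21), was called in neither tissue alone. CHI3L1, a glycoprotein of inflamed joint tissue (4.99), and MPDZ, a scaffold protein (5.10), were called in fluid only, the first not without the fluid of OA_2615 (limma adjusted p = 0.072). EAF2, a transcription elongation factor, differed by 4.96, with 86.24 to 1315 in OA fluid against 0 to 179.2. RPRML (4.99) and PCSK5, a proprotein convertase (4.79), lost the call within horses (limma adjusted p = 0.0556 and 0.0564). In all they lost it in 21 and 5 of the 46 alternative fits that tested them. Blood reads were few for some of these genes. ENPP1 had 43 reads over 6 OA bloods and 181 over 9 healthy bloods, RPRML 19 and 228, and PCSK5 22 and 126. The size of these differences thus depends in part on the constant added before taking logs. RPRML was not called with a constant of 0.5. Of 8 collagens 3 were higher and within horses 1, and the fluid rise of COL5A1 (3.92) came with a difference of 3.70 that was lost within horses (limma adjusted p = 0.13) and in all in 30 alternative fits. Of 11 matrix glycoproteins and proteoglycans, 10 rose in fluid and 4 in blood, and 2 differed between tissues (18.2%, below the share of all genes). FBLN2, a fibulin of the matrix, differed by 3.89 and COMP, a cartilage protein, by 1.67, the latter not called within horses (limma adjusted p = 0.106) and lost in all in 28 alternative fits. COL5A1 is a member of both the fibroblast marker list and the collagen list. The part of the fibroblast markers in the changes of collagens and matrix genes was not tested.

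At the other end stood genes of low level in OA fluid. TNK1, a non-receptor tyrosine kinase, had 0 reads in all 5 OA fluids and 0 to 89.53 in healthy fluids, at least 58.5-fold lower if the OA group is set to a floor of 3 reads over the group, and 38.14 to 103.2 in OA blood against 26.43 to 114.1. MAP7, a microtubule-binding protein, was 39.42, 0, 8.471, 0 and 0.978 in OA fluid against 33.47 to 144.3, with a difference of -4.29 (SE 0.73, limma adjusted p = 0.000592). FOXN1 (-4.92), MCHR1 (-4.36), SLC4A11 (-4.32) and SLIT1 (-3.85) were at 0 in 3 or 4 of the 5 OA fluids, so that these differences depend on the constant added before taking logs. FOXN1 and SLC4A11 were not called by edgeR. CATSPERB (-4.05) and LY49F (-3.91), an NK cell receptor of a family with near-identical copies whose reads may be shared, completed this end. LY49F was not called without the fluid of OA_9570 (limma adjusted p = 0.0579).

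**Figure D4:**
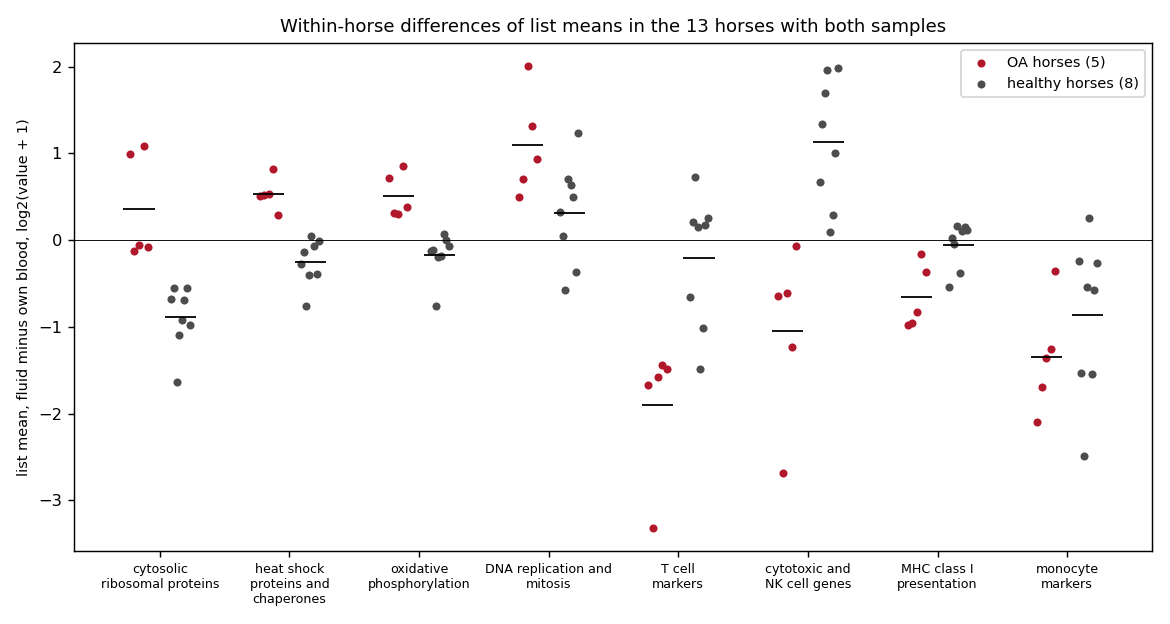
Mean log2(value + 1) of the members of 8 gene lists in fluid minus that in the same horse's blood, for 5 OA horses (red) and 8 healthy horses (grey), with bars for group means; only the gap between OA and healthy horses is interpretable. OA and healthy horses are separate for cytosolic ribosomal proteins (-0.13 to 1.09 against -1.64 to -0.55), chaperones, oxidative phosphorylation and cytotoxic genes, and overlap for monocyte markers.

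Averaged over a list, the within-horse values separated the groups for some of these functions, whereas for most lists they overlapped. These lists were described above from the same libraries, so their means are no separate support. Of all single genes tested, 7.87% had within-horse values without overlap. The cytosolic ribosomal mean was -0.13 to 1.09 in OA and -1.64 to -0.55 in healthy horses. The oxidative phosphorylation mean was 0.30 to 0.85 and -0.76 to 0.07, and the chaperone mean 0.29 to 0.82 and -0.76 to 0.04. The cytotoxic mean was -2.68 to -0.06 in OA and 0.09 to 1.99 in healthy horses. The means of the constitutive proteasome, of mitochondrial ribosomal proteins and of interleukin receptor and JAK-STAT genes did not overlap either. For T cell markers the ranges met, at -3.32 to -1.44 and -1.48 to 0.73.

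Blood-only changes were fewer, and 4 of the 8 named by the rule were genes of cell division. Of 22 genes of DNA replication and mitosis, 12 fell in OA blood (median -0.90) and none rose, where 2.21% of all genes fell. In fluid 2 fell (median -0.09). Without the PBMC library of OA_3850, OA_9350 or OA_9570, 27 to 29 genes were called in blood at all. Blood calls, these 12 among them, thus rest on few libraries. The difference itself was called for 3 of the 22 (median 0.78), which is 13.6% against 22.3% of all genes. For most of them the tissues were thus not shown to differ. UBE2C, which marks mitotic proteins for destruction, was 69.95 to 221.4 (median 132.1) in OA blood against 165.8 to 786.5 (median 339.1), and 325.2, 722.4, 959.4, 350.7 and 475.5 in OA fluid against 158.5 to 828.5. Its effects were -1.52 in blood (SE 0.33) and 0.33 in fluid (SE 0.35), a difference of 1.85 (SE 0.55, limma adjusted p = 0.0166). In blood 4 of 6 OA horses lay below all healthy ones, and without the fluid of OA_3850 the difference was not called (limma adjusted p = 0.0534). CDC20, an activator of the same ubiquitin ligase, the mitotic kinase PBK and the PCNA-binding PCLAF fell in blood by 1.33, 1.35 and 1.26, and had differences of 1.54, 2.02 and 1.49. PBK kept the called difference in all 47 alternative fits, whereas CDC20 lost it in 8 (largest limma adjusted p 0.0831) and PCLAF in 22, of which 18 left out 1 library (largest limma adjusted p 0.108). Leaving out 1 library moved the number of list members called in the difference from 0 to 6, and MCM7 (0.63) was lost in 22 alternative fits, within horses among them (limma adjusted p = 0.0506).

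Among the other blood-only genes, ACP3, an acid phosphatase, rose from 189.2 to 605.0 (median 412.0) in healthy blood to 622.4 to 1253 (median 873.7) in OA blood without overlap, an effect of 1.26 (SE 0.26), against -0.55 in fluid. PAFAH2, which degrades platelet-activating factor and oxidized lipids, fell from 4550 to 7540 (median 5981) to 1286 to 3800 (median 2618), also without overlap, an effect of -1.29 (SE 0.20) against -0.15. These 2 were the only ones of the 8 blood-only genes named by the rule whose OA and healthy bloods were fully apart. CCR2, the receptor that calls monocytes out of the marrow, rose in blood by 1.17 and had -0.28 in fluid (difference -1.46, SE 0.49, limma adjusted p = 0.0322), and was not called when the fluid of OA_1038, OA_2615, OA_3850 or OA_9350 was left out (limma adjusted p up to 0.0832). FKBP11, a secretory pathway gene of plasma cells, fell by 1.16 and had 0.80 in fluid (difference 1.96, SE 0.47, limma adjusted p = 0.00444). It was the only 1 of 10 plasma cell genes with a called difference (10%, below the 22.3% of all genes). In fluid 3 of these 10 fell and 0 rose, and their medians were -0.94 in fluid and -0.70 in blood. AEBP1, a repressor and matrix protein of connective tissue, fell by 1.55 in blood, where its values were 29.73 to 99.08 against 84.58 to 213.1, and had 2.69 in fluid (limma adjusted p = 0.0878), where OA_9570 at 58.71 stood below the other OA horses at 3740 to 11640.

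The summed monocyte markers were 98770 to 236800 in OA blood and 54520 to 129800 in healthy blood, and 19820 to 131200 and 29430 to 85270 in OA and healthy fluid. Of the 6 tested, 2 rose in blood (median 1.01) and CCR2 was the single one with a called difference. Summed neutrophil markers were 33490 to 73370 (median 56670) in OA blood and 8636 to 42520 (median 20560) in healthy blood. For B cell markers the sums were 16370 to 67830 (median 34410) and 29570 to 93330 (median 62150). The part of monocytes, neutrophils or B cells in the blood-only changes was not tested. Like the opposite class, the blood-only class fell to 3 or 4 genes without the PBMC library of OA_3850, OA_9350 or OA_9570.

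**Figure D5:**
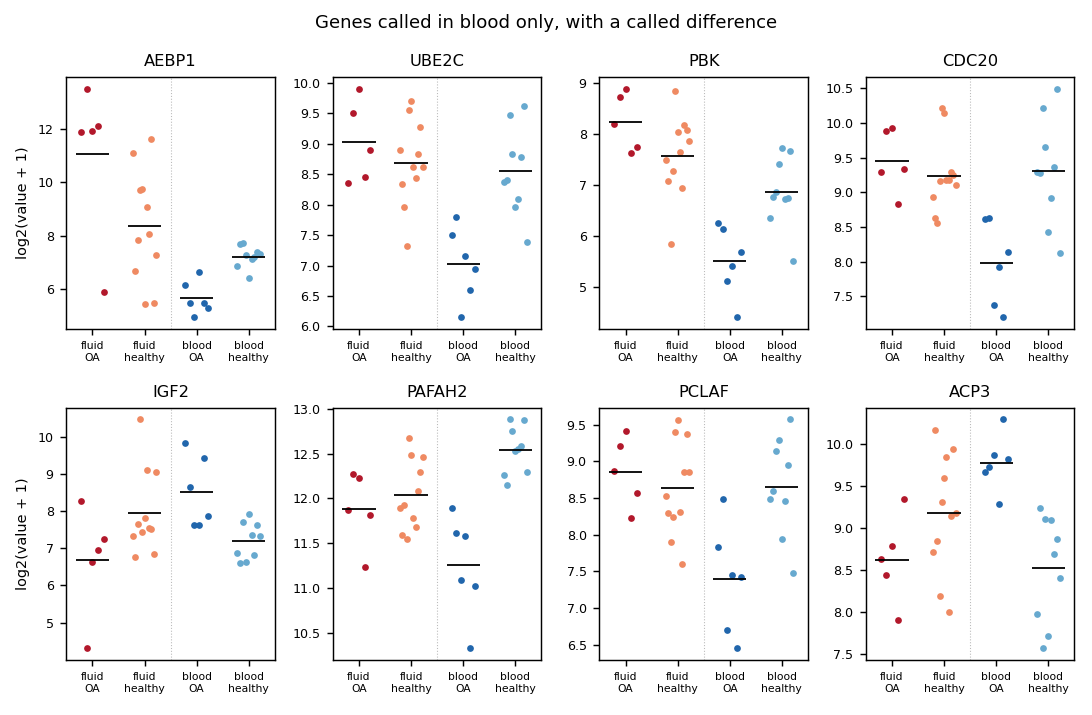
Values of the 8 blood-only genes named by the rule in each library as log2(value + 1), in the same 4 groups, with 1 point per horse and bars for group means; levels left and right of the dotted line are not comparable. OA and healthy bloods are fully apart for PAFAH2 (1286 to 3800 against 4550 to 7540) and ACP3, and the fluid groups overlap in all 8 panels.

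Some genes moved the same way in both tissues. In all, 240 genes were called in each tissue, 6.71% of the fluid calls and 34.6% of the blood calls: 127 were higher in OA in both, 84 lower in both and 29 opposite. Without the PBMC library of OA_3850, OA_9350 or OA_9570, 27 to 29 genes were called in blood at all, so the 240 and its split cannot hold in those fits. For 175 of those with one direction the difference was not called, and 36 had effects of the same sign and unequal size. FN1, the matrix protein fibronectin, rose by 4.06 in fluid and 3.73 in blood, a difference of 0.33 (95% interval -3.02 to 3.69, limma adjusted p = 0.911). THBS1, thrombospondin, rose by 2.71 and 1.94 (difference 0.77, 95% interval -0.91 to 2.45), and the transcription factor SNAI1 by 2.75 and 1.74. These intervals are wide and hold effects that are unequal by more than 2-fold.

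Several lists of innate immunity had medians on the same side in both tissues and no called difference. None of 9 resident macrophage markers had a called difference (medians of 1.34 in fluid and 1.19 in blood), nor had any of 5 neutrophil markers (1.63 and 1.23). The same held for 20 lysosomal genes (0.62 and 0.44), 17 genes of Toll-like receptors and adaptors (0.51 and 0.42) and 12 complement genes (0.62 and 0.40). The lack of a call does not show equal effects. Single differences ran from -0.93 to 1.85 among the macrophage markers and from -1.27 to 1.33 among the neutrophil markers. Of 12 neutrophil markers listed, 5 were in each table. Of the lysosomal genes, 6 rose in blood and 1 in fluid. PSAP, the precursor of lysosomal lipid activators, had 0.62 in fluid (limma adjusted p = 0.259) and 0.77 in blood (limma adjusted p = 0.0358), with a difference of -0.15 (SE 0.44).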

How the data were processed

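RNA from frozen cell pellets was sequenced after oligo(dT) selection with a TruSeq kit, and fluid was treated with hyaluronidase first, per the labels' protocols. Per the submitters' processing notes the tools were Partek, cutadapt, STAR 2.7.3, HTSeq and DESeq, on build EquCab3.0; no settings come with them here. The deposited signal per gene is a read count divided by a size factor per library. Whole reads were recovered from the steps of the values for 98.82% to 99.98% of the values of a library (within 0.1 of a read). Gene coordinates are those of the blood table.

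log2(value + 1) of 12733 genes was fitted with limma 3.58.1 (R 4.3.3) over 4 group means, with weights per tissue (0.613 in fluid and 1.69 in blood), trend and robust variance, two-sided. Effects within a tissue came from separate fits. P-values measure the spread between libraries of a group, each from a different horse. The fit over 4 groups takes the fluid and blood of 1 horse as independent, whereas the within-horse contrast has the horse as its unit. edgeR 4.0.16 on recovered reads called 1506 genes higher and 1507 lower, and DESeq2 1.42.0 called 1709 and 1770. Counts of any pair of libraries of 1 group differed far beyond sampling noise (chi-square per gene at least 37.9). Fluid and blood are paired by the horse number of each title; over genes, a horse's residuals from the group means in one tissue correlated with those in the other by 0.123 to 0.391, over 0.1 for all 13 horses. Scripts were tested on simulated data.

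Members and the 49 gene lists were chosen with earlier results of these data known, so nothing here is independent of those. Genes with a symbol were named as the 8 largest and 8 smallest differences with a mean of at least 50 in the highest group, the 10 opposite genes with the largest smaller effect, the 8 blood-only genes with the largest blood effect, up to 3 called members of smallest p per list (or the 1 of highest mean), and 6 genes called in both tissues alike. Fits left out each library, changed the added constant, filter, scaling, weights and tool, or used only paired horses. Promoter motifs were not analysed here.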

Additional observations from a re-analysis of the deposited data

Results flagged for a closer look

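The difference of the OA effect between fluid and blood was tested directly and passed for 1315 genes on the higher and 1519 on the lower side. It passed for each of the 10 opposite genes named: GAS6 (3.085), CCR6 (3.169), CNN3 (4.127), RCN3 (2.567), APBA1 (-2.174), PLK2 (-2.17), IGF2R (-1.617), BRSK1 (-2.342), CHN2 (-2.474) and RAB11FIP4 (-1.888), all on the log2 scale.

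In 40 named genes, 120 groups of 4 to 10 libraries were examined for a library far from the others by Dixon's criterion, which chance meets in about 1 group in 20, and 11 met it. On the log2(value + 1) scale the low libraries in blood were ORC_202 for FAM124A (0, the nearest at 3.54), OA_4110 for PCSK5 (0, the nearest at 1.93), ORC_208 for FOXN1 (0, the nearest at 3.59), ORC_205 for GAS6 (8.097, the nearest at 8.87), ORC_188 for CCR6 (8.453, the nearest at 9.25) and OA_4110 for IGF2R (12.53, the nearest at 13.18). In OA fluid, OA_9570 was low for PCSK5 (0, the nearest at 6.64) and AEBP1 (5.9, the nearest at 11.87), and OA_2615 was low for RAB11FIP4 (7.728, the nearest at 10.08). OA_3850 was high for FOXN1 (4.987) and SLIT1 (2.388), with the other OA fluids at 0.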

How the results depend on the processing

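Of the 117 named genes with a called difference, 87 kept the call in each of the 47 other fits and 91 with any single library left out, and no named gene reversed. The count of higher genes was 807 with equal totals and 2218 with a weight per library, which also gave 2535 lower and 155 blood-only genes. DESeq2 gave 129 opposite and 233 blood-only genes. The 13 paired horses alone gave 1457 fluid-only and 53 blood-only genes. Leaving out each library in turn gave 863 to 1618 higher genes (fewest without the fluid of OA_1038), 1016 to 1756 lower genes and 1446 to 2694 fluid-only genes (both fewest without the fluid of OA_2615), 0 to 50 opposite genes and 3 to 155 blood-only genes (both most without the blood of ORC_202). Opposite and blood-only genes also fell to 10 and 27 without the healthy blood of ORC_207, 11 and 29 without ORC_200 and 13 and 33 without ORC_208. Opposite genes fell to 18 and 17 without the blood or the fluid of OA_2615, and blood-only genes rose to 134 without the blood of OA_1038. The cause was not tested. Under the replicate block of within-horse differences 1352 genes were higher and 1543 lower. It ended the call of 14 of the 117 named genes (adjusted p 0.0506 to 0.171 by limma) and of none of the 29 opposite genes. The 29 had been picked by their difference in libraries that this contrast reuses. With the horse as a correlated block (correlation 0.237) 1751 were higher and 2027 lower. Without horses OA_9570 and ORC_202, chosen after earlier results were seen, 1727 and 1864 genes were called. Thinning all libraries to the shallowest, chosen after seeing the data, gave 1329 higher and 1525 lower genes. There were only 5 OA fluids and 6 OA bloods, and whether the number of horses or depth limits precision was not tested.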

Other observations

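Lists with other roles showed differences in single members. The lists named here were called at shares below the 22.3% of all genes, apart from the protease inhibitors (25%) and the NF-kappa-B response (23.5%, TNFAIP6 and TNFAIP3 below), so they are given as single genes. Of 16 circadian clock genes, 3 (18.8%) had a lower OA effect in fluid and none a higher one. ARNTL, the core activator of the clock, was 316.6 to 1233 in OA fluid and 1765 to 3069 in healthy fluid without overlap, and 1483 to 1929 in OA blood against 1369 to 2170, a difference of -1.45 (SE 0.25, limma adjusted p = 0.000592). The orphan receptor RORA, which drives its transcription, differed by -2.28, and the repressor CRY2 rose in blood by 0.44 with a difference of -0.63. ARNTL and RORA kept the call in all 47 alternative fits, and CRY2 lost it in 19, of which 16 left out 1 library (largest limma adjusted p 0.101). Of 20 genes of TGF-beta and BMP signalling 3 were called (15%): the transducers SMAD3 (-1.61) and SMAD4 (-0.79) were lower and the ligand BMP6 higher (1.78), the last by effects of 0.70 in fluid and -1.08 in blood, neither called alone. SMAD4 lost the call in 15 alternative fits (largest limma adjusted p 0.0825) and BMP6 in 7 (largest limma adjusted p 0.102), and SMAD3 in none.

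Of 13 prostaglandin and leukotriene genes, 1 was lower and 1 higher (15.4% called). PTGER4, a receptor for prostaglandin E2, was 1091 to 2451 in OA fluid and 2873 to 6052 in healthy fluid without overlap, with effects of -1.24 in fluid and 0.31 in blood (difference -1.54, limma adjusted p = 0.00117). PTGES3, a co-chaperone of HSP90 with prostaglandin E synthase activity, was 5463 to 6586 against 3643 to 5192, with effects of 0.53 and -0.24 (difference 0.76, limma adjusted p = 0.00411). Of 15 genes of haem and iron handling, 3 had a higher effect in fluid: HMOX1, which degrades haem (1.93), FTL, the light chain of ferritin (1.46), and SLC48A1, a haem transporter (0.94). FTL was not called without the fluid of OA_9350 (limma adjusted p = 0.0519). Among immediate early genes BATF (-1.66) and KLF6 (-1.46) were lower, and NR4A3 was higher (3.18) but was not called within horses (limma adjusted p = 0.171). TNFAIP6, a hyaluronan-binding protein of inflamed joints, was 628.3 to 7275 in OA fluid and 0 to 438.5 in healthy fluid without overlap, with a difference of 3.99 that was not called within horses (limma adjusted p = 0.085), while TNFAIP3, an inhibitor of NF-kappa-B, differed by -1.63. Among lipid genes SREBF1, which drives fatty acid synthesis, was lower (-1.51) and LPL, which releases fatty acids from lipoproteins, higher (2.22, limma adjusted p = 0.0571 within horses). Among glucocorticoid-induced genes ERRFI1, an inhibitor of the EGF receptor, was higher (2.97) and TXNIP, an inhibitor of thioredoxin, lower (-1.04). Of the protease inhibitors TIMP1, which blocks matrix metalloproteinases, was 6133 to 20100 in OA fluid against 589.9 to 6717, with a difference of 1.67 that was lost in 3 alternative fits (largest limma adjusted p 0.0676).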
